A study of Mus musculus with 4 samples.

Results

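The 10 genes described here, Fgf3, Fgf4, Fgf8, Fgfr1, Fgfr2, Spry2, Spry4, Dusp6, Etv4 and Etv5, belong to the fibroblast growth factor (FGF) and ERK signalling pathway of the mouse. They form a chosen set of ligands, receptors, feedback inhibitors and target transcription factors, out of 21774 protein-coding genes of the RefSeq annotation. All peaks within 1 kb (promoter) and within 50 kb of their transcription start sites (TSS) were taken from 4 lists of accessible chromatin, together 95 of 80380 accessible regions.

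The lists came from ATAC-seq, in which the transposase Tn5 cuts open chromatin, of embryoid bodies (EBs) on day 4 after differentiation of mouse embryonic stem cells. The 2 WT libraries came from wild-type E14Tg2A cells. The 2 CTCF-K20R libraries came from E14Tg2A cells in which Cas9 editing replaced lysine 20 of the architectural protein CTCF with arginine. Both genotypes had grown on mouse embryo fibroblast feeders with serum, LIF and 2i, which includes the MEK inhibitor PD0325901, and were then differentiated as hanging drops in serum medium lacking LIF. The labels give neither the number of edited clones behind the libraries nor how far EBs were pooled, so the spread between libraries may be partly technical.

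FGF ligands bind tyrosine kinase receptors, which pass the signal through RAS, RAF and MEK to the kinase ERK. ERK activates ETS-family transcription factors such as Etv4 and Etv5, and induces its own inhibitors, among them the Sprouty proteins and the phosphatase Dusp6. In the early mouse embryo, Fgf4 and Fgf8 acting through Fgfr1 are needed for mesoderm cells to leave the primitive streak, and ERK activity moves stem cells out of naive pluripotency.

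Peak strength was the −log10 p of a summit, written as the percentile within the library's own list, where 100 is the strongest peak. With 59783 and 66703 peaks the lists of WT were longer than those of K20R, with 51823 and 55832, and the weakest peaks of a longer list push its common peaks to higher percentiles. Ranks were therefore also taken anew among the features found in all 4 lists, called re-ranked below. A feature was called lower or higher in K20R where both K20R libraries lay on the same side of both WT libraries. With 2 libraries against 2, an exact permutation test cannot go below p = 0.333, so such a call is a description and not a significant difference. Over all genes, 13521 had a promoter peak in every list, of which 3097 were lower and 2145 higher in K20R on both scales. Among marker lists, 3 of 5 endoderm genes had a promoter peak, and these 3 were lower in K20R on both scales. Pluripotency genes were higher for 4 of 5 on both scales, early mesoderm genes split 2 lower and 2 higher of 6, and neuroectoderm genes 1 and 1 of 4. Of 8 fibroblast feeder markers, 5 had a promoter peak and 4 had one in all lists, with 1 lower and 0 higher on both scales; Col3a1, Postn and Lum had no promoter peak in any list. EBs are mixtures, so the accessibility of a cell type and its share of the cells cannot be told apart, and the part of these markers in the values below was not tested.

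To see whether the pathway was accessible at its promoters, the strongest peak within 1 kb of each TSS was compared. A promoter peak was present for all 10 genes in every library, and all 40 of these summits had a −log10 q of at least 10. On the percentile within the list, 4 genes were lower in K20R (Fgf4, Fgf8, Dusp6 and Etv5), against 31.9% of the 13521 genes with a promoter peak in every list, and 1 was higher (Fgfr1), against 15.9%. After re-ranking, 3 were lower (Fgf8, Dusp6 and Etv5), against 22.9%, and 1 was higher (Fgfr1), against 23.9%. With 10 genes, these counts were close to their backgrounds. The gene ends of the GENCODE records in place of RefSeq's gave 6 lower and 0 higher, and for Fgf4, Fgfr1 and Fgfr2 those ends lie 14019, 5105 and 2856542 bp from the RefSeq start. The mean percentile over the 10 genes was 82.9 ± 1.14 in WT and 80.2 ± 0.586 in K20R (SD, n = 2 libraries each, exact permutation p = 0.333).

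**Figure D1:**
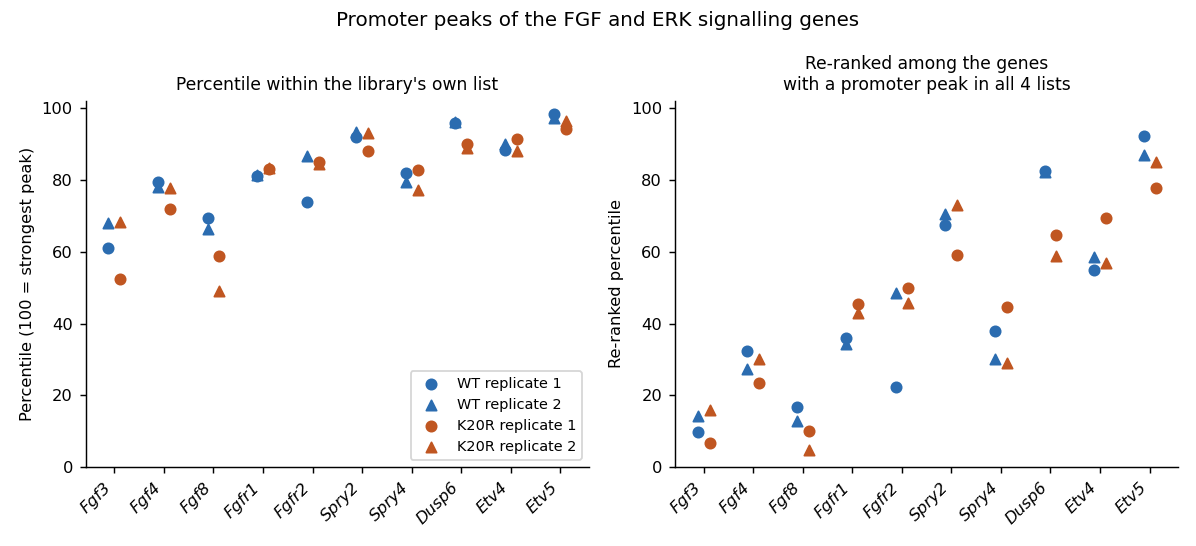
Percentile of the strongest promoter peak of the 10 genes in each of the 4 libraries, on the left within the library's own list and on the right re-ranked among 13521 genes. Each point is 1 library. Dusp6, Fgf8 and Etv5 have both K20R points under both WT points on both scales, Fgfr1 has both above, and the other 6 overlap on at least the re-ranked scale.

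Among the ligands, Fgf8, which patterns the primitive streak and its mesoderm, stood at percentiles 69.4 and 66.3 in WT against 58.9 and 48.9 in K20R. Its promoter summits held pileups of 80 and 108 tags in WT against 55 and 71 in K20R, where pileup is the number of sequence tags stacked at the summit, recovered from its fold and p. Relative to the median of the regions common to all lists, the Fgf8 promoter pileup was 0.62 lower in K20R on the log2 scale, with a range of -0.78 to -0.45 over the 4 pairs of a WT and a K20R library. The K20R libraries were below the WT libraries in percentile, in rank among genes and in centred pileup, but the region overlapped when re-ranked among common regions. By fold over local background the mean rank difference turned to 1.19 points higher in K20R.

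Fgf4, the ligand that stem cells themselves secrete, had percentiles of 79.3 and 77.9 in WT against 72.0 and 77.6 in K20R. The lower call rested on a gap of under 1 point between WT replicate 2 and K20R replicate 2, was lost after re-ranking, and the centred pileup was 0.24 higher in K20R. Fgf3, a neighbour of Fgf4 on chromosome 7 with roles in inner ear and tail development, stood at 61.2 and 68.0 in WT against 52.4 and 68.2 in K20R, and the genotypes overlapped.

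Of the receptors, Fgfr1, the main FGF receptor of the epiblast and early mesoderm, was tight within each genotype. Its promoter percentile was 81.0 and 81.3 in WT against 83.1 and 83.3 in K20R. The pileup moved the same way by 0.10 (range 0.07 to 0.14), a small difference, and the higher call was lost when ranks were taken only above a −log10 q of 5 or of 10. Fgfr2, the receptor of extraembryonic and epithelial tissues, overlapped, with percentiles of 73.8 and 86.8 in WT against 84.8 and 84.4 in K20R.

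Dusp6 had the widest promoter difference after re-ranking, whereas by percentile and centred pileup Fgf8 differed more. Dusp6 encodes the phosphatase that removes the activating phosphates of ERK. The percentile was 95.9 and 96.2 in WT against 90.0 and 88.8 in K20R, and the pileup was 175 and 274 tags in WT against 140 and 212 in K20R. Re-ranked, Dusp6 stood at 82.4 and 82.3 in WT against 64.8 and 58.9 in K20R, with no overlap in either kind of rank. The centred pileup difference was -0.39 (range -0.45 to -0.33). Ranked by fold, however, the Dusp6 promoter overlapped between genotypes. Spry2 and Spry4, which block the pathway upstream of ERK, overlapped at their promoters. Spry2 was at 91.9 and 93.4 in WT against 88.1 and 93.1 in K20R, and Spry4 at 81.8 and 79.5 in WT against 82.7 and 77.1 in K20R. The strongest summit of the Spry4 promoter region also lay within 1 kb of a TSS of Arhgap26, so that region cannot be assigned to Spry4 alone.

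The ETS factors had strong promoters in every library. Etv5 stood at 98.2 and 97.3 in WT against 94.0 and 96.3 in K20R, with a narrow gap between the genotypes. Its pileup of 153 and 216 tags in WT against 136 and 246 in K20R overlapped after centring, with a log2 difference of -0.04 and a range of -0.21 to 0.14. Etv4 overlapped, at 88.2 and 90.0 in WT against 91.4 and 88.1 in K20R.

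Around the promoters, the number of peaks within 50 kb of any of the 10 TSS was 68 and 81 in WT against 71 and 71 in K20R. The difference of -3.5 peaks was smaller than the spread between the WT libraries (exact permutation p = 1). Per 1000 peaks of the list the counts were 1.14 and 1.21 in WT against 1.37 and 1.27 in K20R (exact permutation p = 0.333). Merging overlapping peaks gave the 95 regions, of which 5 lay in the windows of both Fgf3 and Fgf4. Of the 95, 49 (51.6%) were common to all 4 lists, against 53.7% of all regions within 50 kb of a TSS. A further 8 (8.42%) were WT-restricted, that is, present in both WT lists and in neither K20R list, against 8.5%, and 4 (4.21%) were K20R-restricted, against 2.95%. The other 34 (35.8%, against 34.8%) had some other combination of lists. By presence alone the regions near the 10 genes were therefore distributed much as regions near other genes.

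**Figure D2:**
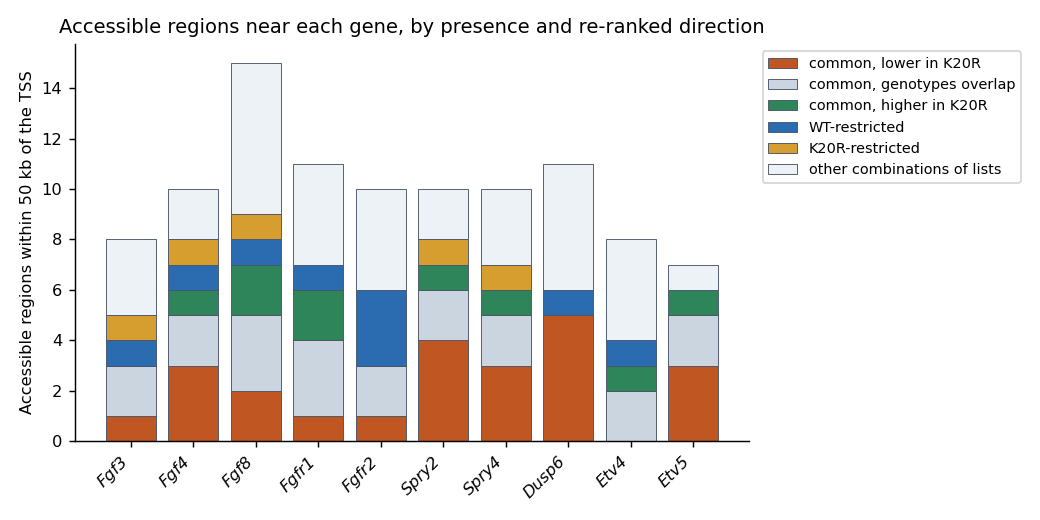
Accessible regions within 50 kb of the TSS of each gene, stacked by their presence in the lists and, for common regions, by the re-ranked direction. All 5 common regions of the Dusp6 window are lower in K20R, whereas Etv4 has none, and Fgfr2 has 3 of the WT-restricted regions; 5 regions are counted under both Fgf3 and Fgf4.

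In strength, the common regions differed more. Of the 49, 28 were lower and 8 higher in K20R by percentile in the list, against 34.1% and 18.1% of common regions near all genes, and 22 were lower and 9 higher after re-ranking, against 24% and 29.1%. The division was between distal regions and promoters, a split made after the values were seen. Of the 36 distal common regions, whose strongest summit lay outside every promoter, 24 (66.7%) were lower by percentile, against 35.9%, and 20 (55.6%) after re-ranking, against 27.5%. Only 5 (13.9%) were higher by percentile, against 19.6%, and 6 (16.7%) after re-ranking, against 29.9%. The median centred pileup difference of the 36 was -0.33 on the log2 scale, against 0.05 over 16613 distal common regions near all genes. The 13 common regions at promoters, of the 10 genes or of neighbours, split 2 lower (15.4%) and 3 higher (23.1%) after re-ranking, with a median of 0.10. The Fgf8 promoter was not among the 2. Over common regions of all kinds near all genes the shares were 24% and 29.1%, and those of promoter regions alone were not computed. With 13 regions, the promoter counts are too small to set apart from these shares.

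The lower distal regions were not confined to 1 gene, since 9 of the 10 genes had at least 1 that was lower on both scales, Etv4 being the exception. That count depends on the number of distal common regions per gene, which was 1 to 6. The matching share over all genes was not computed. Without the Dusp6 window, 16 of 32 (50%) were lower after re-ranking and the median difference was -0.19. Of the 20 that were lower on both scales, 19 had a lower centred pileup in every pair of libraries. The pileup is recovered in part from the −log10 p that gave the ranks, so it is not separate support for these calls. Intergenic regions accounted for 15 of the 20 and introns for 5, whereas the 36 comprised 22 intergenic, 12 intronic and 2 exonic regions. In 6 regions, 3 of them outside the Dusp6 window, the pileup was at or below a log2 difference of -1, and none reached 1 in the other direction. The shares of such regions near all genes were not computed.

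**Figure D3:**
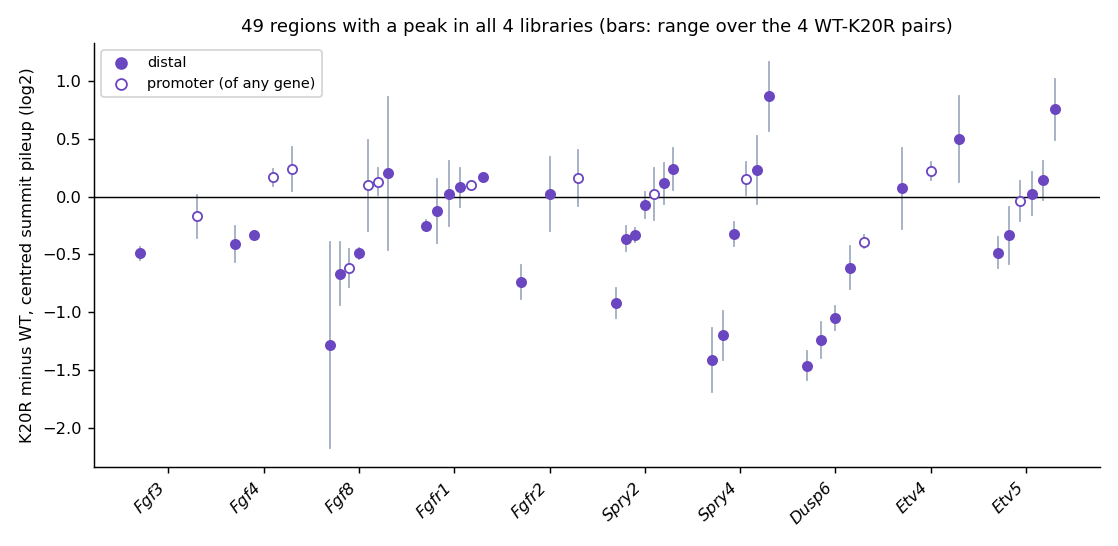
Difference of the centred log2 summit pileup, K20R minus WT, for the 49 regions with a peak in all 4 libraries, grouped by the nearest of the 10 genes. Points are means over 2 libraries per genotype, bars span the 4 pairs of a WT and a K20R library, and filled points are distal regions; the lowest points belong to Dusp6, Spry4 and Fgf8, and the highest to Spry4 and Etv5.

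Dusp6 was the gene whose common regions were most uniform in direction. All 5 of them, the promoter and 4 downstream intergenic regions, were lower in K20R on both scales, with a median pileup difference of -1.05. Its window held 11 regions, and those outside the common class went both ways. The region 34074 bp upstream stood at 46.2 and 50.1 in K20R against 17.5 in WT replicate 2. The region 7869 bp downstream stood at 10.1 and 8.65 in WT against 1.22 in K20R replicate 1. Of the 13 other common regions within 1 Mb on either side, 23.1% were lower and 30.8% higher after re-ranking. The 3 regions with the lowest ranks in K20R relative to WT are printed as 121 bases centred on their strongest summit, from the forward strand of mm10, because they carry the widest differences of the gene.

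Dusp6, 6210 bp downstream, chr10:99269381-99269501: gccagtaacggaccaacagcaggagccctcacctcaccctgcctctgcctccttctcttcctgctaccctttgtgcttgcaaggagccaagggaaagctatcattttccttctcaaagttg
Dusp6, 22671 bp downstream, chr10:99285842-99285962: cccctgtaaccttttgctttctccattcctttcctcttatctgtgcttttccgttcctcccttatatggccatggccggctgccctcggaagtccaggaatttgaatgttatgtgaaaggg
Dusp6, 35665 bp downstream, chr10:99298836-99298956: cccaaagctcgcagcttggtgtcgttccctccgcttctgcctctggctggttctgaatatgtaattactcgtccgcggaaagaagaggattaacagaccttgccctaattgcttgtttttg

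The region 6210 bp downstream of the Dusp6 TSS stood at percentiles 82.7 and 81.6 in WT against 50.2 and 43.3 in K20R. Its pileup was 79 and 122 tags in WT against 32 and 42 in K20R, a centred log2 difference of -1.47 (range -1.59 to -1.34). Both K20R pileups were below both WT pileups. At 22671 bp the percentiles were 56.9 and 62.8 in WT against 17.5 and 23.4 in K20R, with pileups of 29 and 48 against 15 and 23. At 35665 bp they were 74.7 and 78.0 in WT against 41.0 and 50.0 in K20R, with pileups of 43 and 72 against 19 and 31. In all 3 regions the genotypes were separated in rank and in centred pileup, with log2 differences of -1.05 to -1.47. A WT-restricted region 18411 bp upstream of Dusp6 was weak, at percentiles 11.4 and 42.5, and no peak number was missing from the K20R lists there, so no called peak can have been taken out of those lists at this place.

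Near Spry4 the promoter overlapped, but the intergenic regions 24986 and 27326 bp downstream were among the lowest in K20R. The first stood at percentiles 79.4 and 88.5 in WT against 44.9 and 37.5 in K20R, with pileups of 73 and 140 against 34 and 45. The second stood at 70.7 and 60.1 in WT against 29.3 and 23.3 in K20R, with pileups of 61 and 77 against 27 and 35. The centred differences were -1.41 and -1.20. A region over an exon of Spry4, 11017 bp downstream, went the other way, at 20.3 and 19.0 in WT against 43.2 and 39.9 in K20R, with a pileup difference of 0.87 (range 0.57 to 1.17). Upstream, 34770 bp away in an intron of Arhgap26, a K20R-restricted region stood at 21.7 and 47.1, but 4 and 3 peak numbers were missing there from the WT lists, so a called WT peak may have been taken out.

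At Spry2, 4 of 6 distal common regions were lower and 1 higher on both scales. Near all genes 27.5% of distal common regions were lower and 29.9% higher after re-ranking. The widest difference lay 26282 bp upstream, at percentiles 87.4 and 87.8 in WT against 59.2 and 60.9 in K20R, with pileups of 92 and 149 against 50 and 81. Its neighbour 24188 bp upstream was higher, at 86.0 and 91.0 in WT against 94.6 and 92.4 in K20R. The log2 differences of the pair, -0.92 and 0.24, had opposite signs within about 2 kb of each other. Of the 14 common regions within 1 Mb of Spry2 but outside its window, 35.7% were lower and 28.6% higher after re-ranking. The lower region of the pair was at the following forward-strand window.

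Spry2, 26282 bp upstream, chr14:105923041-105923161: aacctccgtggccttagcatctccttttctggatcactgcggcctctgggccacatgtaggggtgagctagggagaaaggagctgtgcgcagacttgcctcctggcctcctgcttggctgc

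A region 35737 bp downstream of Spry2 stood at 64.5 and 63.3 in WT against 43.2 and 35.6 in K20R, with a pileup difference of -0.33. The K20R-restricted region 34544 bp downstream was weak, at 8.88 and 8.41, and 3 and 2 peak numbers were missing there from the WT lists.

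Around the ligands, the region 25271 bp downstream of Fgf8 was lower in K20R but with a wide spread. Its percentiles were 50.3 and 71.2 in WT against 33.7 and 5.31 in K20R, and the pileup difference of -1.28 ranged from -2.18 to -0.39. Over an exon of Fgf8, 5678 bp downstream, the percentile was 49.1 and 33.9 in WT against 54.0 and 53.8 in K20R, whereas the pileup was 73 and 85 against 45 and 58. The direction there thus depended on the scale, since the rank reads a summit against its local background and the pileup does not. A WT-restricted region 17086 bp downstream stood at 32.6 and 38.7, with 1 peak number missing in each K20R list. Within the promoter window of Fgf8, 1110 bp downstream, a K20R-restricted region stood at 14.3 and 15.2, with no peak number missing in either WT list.

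Fgf3 and Fgf4 share part of their windows. A K20R-restricted region 3923 bp upstream of Fgf4 was the strongest of the 4, at percentiles 47.8 and 52.9 and pileups of 42 and 69, and 1 peak number was missing there from each WT list. A WT-restricted region 11570 bp downstream of Fgf4 stood at 8.66 and 31.5, with 2 numbers missing from each K20R list. The region 7731 bp downstream of Fgf3 is outside the naming rule and was chosen after its values were seen, because it holds letters of the CTCF consensus. Its percentiles were 58.8 and 63.7 in WT against 39.2 and 53.1 in K20R, with a pileup difference of -0.49 (range -0.55 to -0.43). Both windows follow, with the consensus match in capitals.

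Fgf4, 3923 bp upstream, chr7:144857403-144857523: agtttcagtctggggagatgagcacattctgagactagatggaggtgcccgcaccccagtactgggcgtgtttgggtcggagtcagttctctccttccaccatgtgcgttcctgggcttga
Fgf3, 7731 bp downstream, chr7:144846283-144846403: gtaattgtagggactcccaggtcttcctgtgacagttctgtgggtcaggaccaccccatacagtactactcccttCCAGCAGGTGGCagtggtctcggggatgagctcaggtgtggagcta

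**Figure D4:**
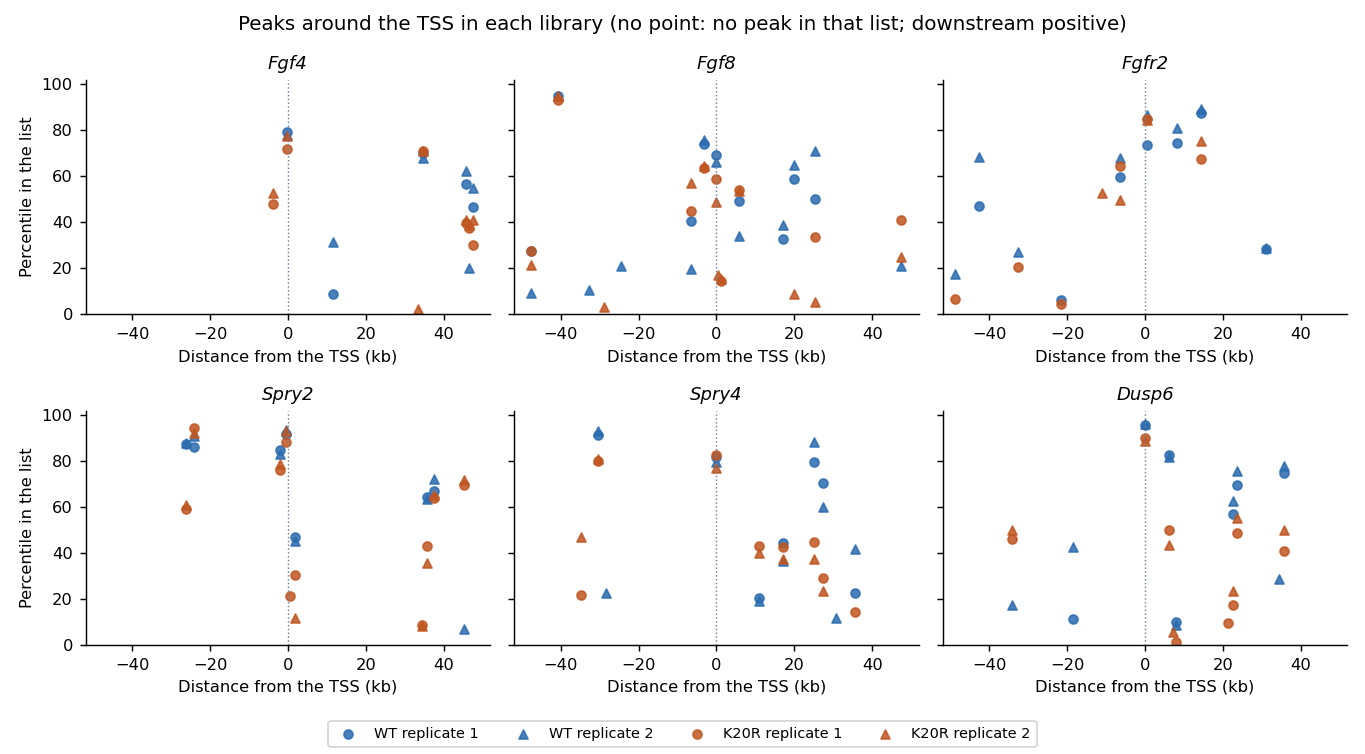
Percentile of each peak against the distance of the region's strongest summit from the TSS, in each library, for 6 of the genes, with regions drawn under the nearest of the 10 genes. At Dusp6 the 4 common regions downstream of the promoter have both orange K20R points under the blue WT points; at Spry2 the neighbouring regions 26282 and 24188 bp upstream go opposite ways.

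Of the receptors, Fgfr2 had 3 of the 8 WT-restricted regions. The strongest, in an intron 8147 bp downstream of the TSS, stood at percentiles 74.5 and 80.9 and pileups of 49 and 83 in WT and had no peak in either K20R list, but 1 peak number was missing from each of them, so a called peak may have been taken out. The others lay 31009 bp downstream (28.4 and 28.7, no number missing) and 42666 bp upstream (47.1 and 68.3, 1 and 0 numbers missing). Of the 27 common regions within 1 Mb of Fgfr2 but outside its window, 55.6% were lower and 11.1% higher after re-ranking, so lower values were also frequent in the surroundings. The window of the strongest one was as follows.

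Fgfr2, 8147 bp downstream, chr7:130258601-130258721: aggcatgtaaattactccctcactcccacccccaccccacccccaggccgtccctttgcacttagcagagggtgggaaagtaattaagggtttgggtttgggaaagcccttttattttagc

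Near Fgfr1, a WT-restricted intronic region 2824 bp downstream stood at 49.8 and 38.7, with no peak number missing in the K20R lists. A weak common region 34994 bp upstream of Fgfr1 had a higher percentile in K20R, at 14.9 and 12.8 in WT against 27.6 and 33.8 in K20R, while its pileup overlapped (-0.12, range -0.40 to 0.15). Near the ETS factors, an intronic region 36722 bp downstream of the Etv5 TSS was higher, at 70.6 and 68.8 in WT against 72.7 and 80.8 in K20R, with a pileup difference of 0.76 (range 0.49 to 1.02). Of the 5 distal common regions of Etv5, 2 were lower on both scales and 3 by percentile. Near all genes 27.5% of distal common regions were lower after re-ranking and 35.9% by percentile, and 5 regions are too few to set apart from that. Etv4 had no distal common region that was lower, and its single WT-restricted region, 45008 bp upstream, stood at only 2.34 and 7. Of the 8 WT-restricted regions 6 had a mean percentile under 50, and 4 lay where no peak number was missing in either K20R list.

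To describe the sequence of the regions, the 201 bases around each strongest summit were searched on both strands for short consensus letters. The ETS consensus CCGGAAGT was found in 0 of the 95 regions, against 1.30% of all 80380. AP-1 (TGANTCA), another target of ERK signalling, was found in 7 (7.37%, against 7.07%), TCF-LEF (CTTTGAT) in 5 (5.26%, against 2.68%) and T-box (TCACACCT) in 2 (2.11%, against 1.25%). The core of the CTCF consensus was found in 4 (4.21%, against 11.4%), 3 of them common regions. Among the 20 distal common regions that were lower on both scales, 2 (10%) held CTCF letters, 1 (5%) held T-box letters and 0 held ETS, AP-1 or TCF-LEF letters. Of all 24300 common distal regions, 17.5% held CTCF, 1.07% T-box, 0.58% ETS, 7.26% AP-1 and 3.01% TCF-LEF letters. The 16 distal common regions that were not lower on both scales held CTCF letters in 1, AP-1 in 1, TCF-LEF in 3 and T-box or ETS in 0. These are matches of letters, not measured binding.

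Across the rest of the pathway, 72 further genes were examined, of which 71 were matched in the annotation and 64 had a promoter peak in all 4 lists. By percentile 14 were lower (21.9%, against 31.9%) and 11 higher (17.2%, against 15.9%) in K20R, and after re-ranking 12 were lower (18.8%, against 22.9%) and 16 higher (25%, against 23.9%). The shares were near those of all genes after re-ranking, while by percentile fewer were lower than among all genes. On both scales 12 were lower and 11 higher, against 3097 and 2145 of 13521 genes in all. The counts by role that follow are also on both scales, and at 4 to 15 genes each they are too small to set apart from that background. By role, the further ligands counted 3 lower and 3 higher of 15, the receptors and co-receptors 1 and 0 of 4, the adaptors 0 and 2 of 8, and the RAS to ERK kinases and their partners 3 and 1 of 13. Inhibitors counted 2 lower and 3 higher of 13, and transcription factors and early targets 3 and 2 of 11.

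Fgf5, the ligand that marks the primed epiblast, differed most of the 64 after re-ranking, whereas Fgf21 differed more by percentile and pileup. Its promoter percentile was 93.2 and 89.1 in WT against 61.2 and 63.4 in K20R, and its pileup was 121 and 162 tags in WT against 59 and 95 in K20R. Mapk3, which encodes ERK1, stood at 79.8 and 87.0 in WT against 66.0 and 71.8 in K20R. The ligands Fgf22 and Fgf10, the decoy receptor Fgfrl1, the ETS factor Ets1, the ERK phosphatase Dusp9 and the early target Phlda1 were lower by 9.61 to 18.8 re-ranked points in the mean.

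In the other direction, Fgf21, a metabolic hormone of the FGF family, stood at 14.1 and 36.8 in WT against 71.3 and 79.2 in K20R, but the summits of these peaks lay between -2003 and -810 bp of the TSS and differed in place between libraries. The ERK phosphatase Dusp4 stood at 75.2 and 72.3 in WT against 82.1 and 82.2 in K20R, opposite to its relative Dusp6. The scaffold Ksr1, the inhibitors Spred2 and Dusp5, the ETS factor Etv1, the docking protein Frs2 and the early target Ier3 were higher by 11.8 to 20.2 re-ranked points.

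**Figure D5:**
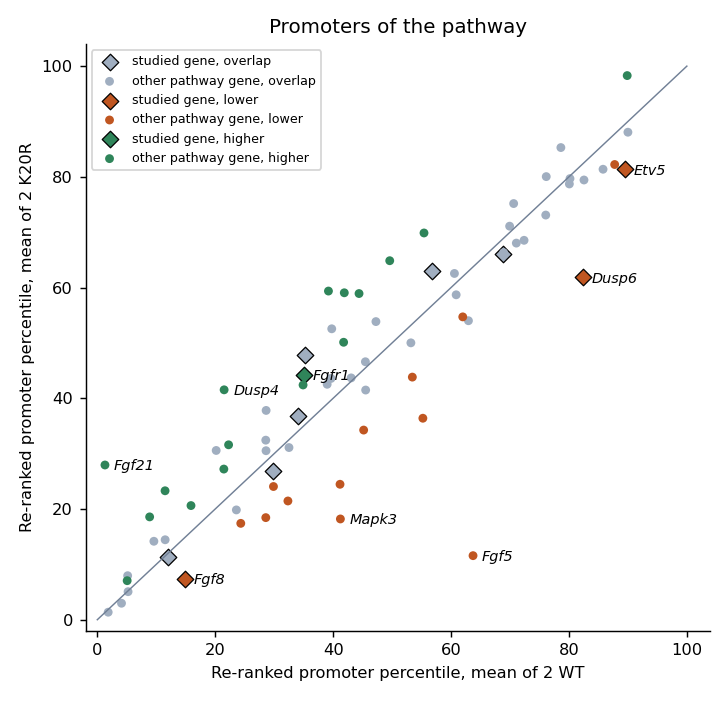
Re-ranked promoter percentile, mean of 2 K20R libraries against mean of 2 WT libraries, for the 10 genes (diamonds) and 64 further pathway genes (circles), coloured by the re-ranked direction. Fgf5 and Dusp6 lie far under the diagonal and Fgf21 and Dusp4 above it; 36 of the 64 circles are grey because their genotypes overlap.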

How the data were processed

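ATAC-seq peak lists of 2 WT and 2 CTCF-K20R libraries of day 4 EBs were analysed, grouped by the sample titles. Per the study's methods, reads were trimmed with Trim Galore, aligned to mm10 with Bowtie2, freed of duplicates and blacklisted regions, and peaks were called with MACS2, which the submitters' processing notes also name. The deposited lists hold, from the authors, a score (the −log10 p times 10), the fold enrichment of the summit over local background (a ratio), the −log10 p and the −log10 q of the summit. Each list was taken as called per library, since replicates have separate files. The lists include very weak peaks, so presence in a list does not mean a strong peak. For example, the −log10 q was 0.749 at the region 7869 bp downstream of Dusp6 in K20R replicate 1. It was 0.890 at the WT-restricted Etv4 region in WT replicate 1. Peaks are numbered with gaps, and the lists hold 50.5% to 60.8% of their numbers, so called peaks were removed by a rule not given in the sources used here. Reads were not used here, so no differential test on counts was run and precision rests on 2 libraries per genotype.

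Peaks were ranked by −log10 p within each list with Python 3.11.15, pandas 2.3.3 and SciPy 1.17.1. Peaks of the 4 lists sharing 1 bp were merged into regions. Promoter peaks lay within 1000 bp of a TSS and neighbouring regions within 50000 bp. The TSS was planned as the 5′ end of the GENCODE gene record, and was replaced for all genes by that of RefSeq (GRCm38.p6) once the records of Fgf4, Fgfr1 and Fgfr2 were seen to start elsewhere. Distal regions had their strongest summit outside 1000 bp of any coding TSS. Summit pileups were recovered from fold and −log10 p, came out whole within 0.05 for 100% of peaks, and were centred on the library's median over common regions. Relative depth, from the lowest background, was 1 and 0.976 for WT against 1.15 and 1.04 for K20R. The recovery of pileups and the calls were tested on simulated data with known changes. The simulated libraries had equal length and equal noise, whereas the deposited lists differ in length. That test therefore does not cover effects of list length on the calls.

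Named were the 10 genes, further pathway genes called in the same direction on both scales (up to 8 per direction by re-ranked difference), every restricted region near the genes, and distal common regions called on both scales (up to 8 per direction); exceptions are marked. The genes and lists were chosen with earlier results of these data known. An OCT-SOX motif was planned and not searched. Promoter windows, TSS sets, ranking, overlap, thresholds and libraries were varied.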

Additional observations from a re-analysis of the deposited data

How the results depend on the processing

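The mean promoter percentile difference of the 10 genes, -2.70 points, kept its sign but ranged from -6.91 with GENCODE gene records to -1.20 re-ranked and -0.10 ranked by fold, and the centred pileup gave -0.03 on the log2 scale. The count of distal common regions lower in K20R, 24 by percentile, stayed within 1.5 times under 12 of 16 alternatives. It was 6 within 10000 bp and 38 within 100000 bp, and 15 and 7 with a −log10 q of at least 5 and of at least 10; the counts higher in K20R were then 1, 8, 3 and 1. For all common regions these settings gave 10, 43, 18 and 10 lower and 3, 14, 3 and 1 higher, and windows and thresholds change how many regions are counted. The shares near all genes were not computed under these settings. Whether distal regions near the 10 genes stayed lower more often than near all genes was therefore not tested there. WT-restricted regions numbered 2 within 10000 bp, 18 within 100000 bp, and 5 under either threshold, with lists of equal length and with GENCODE gene records. K20R-restricted regions numbered 2 within 10000 bp, 2 with a −log10 q of at least 10 and 8 with lists of equal length, where the peak count difference also turned to 8.5 more in K20R. Among promoters of the 10 genes, ranking by fold gave 2 lower and 2 higher, recovered pileup (added after seeing the data) 2 lower and 4 higher, and both thresholds and GENCODE records 0 higher. For further pathway genes, the stricter threshold gave 8 lower and recovered pileup 19 higher. Among the 5 promoters called by percentile, the mean difference turned at Fgf4 with pileup (0.24), at Fgf8 with fold (1.19) and at Fgfr1 with GENCODE records (-11.4); the 5 whose genotypes overlapped (Fgf3, Fgfr2, Spry2, Spry4 and Etv4) each changed sign under at least 1 alternative, for example Fgfr2 from 4.33 to -3.77 with any coding TSS. The cause was not tested.

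Leaving out each library in turn gave 4 to 6 promoters lower and 1 to 3 higher among the 10 genes, 19 to 38 and 16 to 22 among further genes, 10 to 14 WT-restricted and 4 to 11 K20R-restricted regions, 29 to 36 common regions lower and 10 to 14 higher, 25 to 29 distal ones lower and 6 to 11 higher, and a peak count difference of -10 to 3, which turned to 3 without WT replicate 2. A call across 3 libraries is easier to meet than across 4.

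The replicate numbers were not shown to pair the libraries region by region, since the correlation of deviations of same-numbered libraries was 0.098 with 2 pairs. It was taken on centred pileups, so it cannot see a shift shared by whole libraries. Before centring, the median pileup of common regions was 38 in WT replicate 1 and 39 in K20R replicate 1. In the replicate 2 libraries it was 56 and 58. Whether the numbers mark a shared batch was not tested. With a replicate block, where the direction need hold only within each number, 5 promoters of the 10 genes were lower and 1 higher, 31 common regions were lower and 9 higher, and the peak count difference was -3.5 (exact sign-flip p = 1, smallest possible 0.5). Such a call is easier to meet, and further pathway genes went from 14 to 20 lower and from 11 to 12 higher. The shares over all genes and all common regions under the block were not computed.

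Ranks depend on what else is in a list, and the gaps in the peak numbers limit every statement on absence. With 2 libraries per genotype no difference can be called significant.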

Other observations

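Some regions near the 10 genes fell outside the naming rule because they were present in 3 of the lists, and they were chosen after their values were seen. The region 45246 bp downstream of Spry2, which encodes an inhibitor of the pathway, stood at percentiles 69.5 and 71.8 in K20R, with pileups of 35 and 55. In WT replicate 2 it stood at 7, with a pileup of 10, and WT replicate 1 listed no peak there, with no peak number missing. The region 34074 bp upstream of Dusp6 was likewise stronger in K20R, at 46.2 and 50.1, with 17.5 in WT replicate 2 and no peak in WT replicate 1, where no number was missing either. It lay in the same window as the 5 common regions of Dusp6 that were lower in K20R. In the other direction, the region 19937 bp downstream of Fgf8 stood at 58.9 and 64.7 in WT and at 8.86 in K20R replicate 2. K20R replicate 1 listed no peak there, with 1 peak number missing. These differences were not tested.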
